A study of Homo sapiens with 6 samples.

Results

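MRC5 is an established line of human fetal lung fibroblasts. The values described here are those of a single mRNA library of these cells, taken from the mRNA table of a series of 6 libraries in which 3 mRNA and 3 small RNA libraries stand for 3 treatment groups. The library is the control group at 48 h. Its treatment label reads DMSO and its genotype label WT, so the cells described as untreated here had received the solvent and neither TGF-β1 nor luteolin plus TGF-β1, as the other groups did. All groups are of this 1 cell line. Both of its columns, whole-number counts and the authors' TPM, in which counts are divided by gene length and scaled to a sum of 1000000 over all features, were used for all 60623 features of the table. The library held 17876657 counts. There was 1 library in the control group, so no value has a replicate, no difference was tested, and every interval given is an exact Poisson 95% interval of the count scaled to TPM, which covers counting error only.

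Fibroblasts are the mesenchymal cells that build and remodel the extracellular matrix of the lung. They secrete fibrillar collagens, fibronectin and proteoglycans, fold and modify collagen chains in the endoplasmic reticulum, and hold on to the finished matrix through integrins that are tied to an actin cytoskeleton. They also read growth factors such as PDGF, FGF and TGF-β, and in culture on plastic they commonly spread, divide and carry thick actin bundles.

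Lists of cell type markers were drawn up with earlier results of these data known, so they do not test the label. All 16 fibroblast and mesenchymal markers stood at 10 TPM or more, beside 41.9% of all protein-coding genes. The most abundant of the 16 were S100A6, a calcium-binding protein, at 4009 TPM, and VIM, the intermediate filament protein vimentin, at 3905 TPM. COL1A1, the α1 chain of type I collagen, followed at 3428 TPM. The lowest was FAP, a fibroblast surface protease, at 30.1 TPM. The surface antigens NT5E and THY1 had 477 and 424 TPM, and the perivascular and stromal glycoprotein CD248 had 826 TPM.

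Markers of blood cells were near 0, and so were those of vessel cells apart from TEK. None of the 10 blood cell markers, leukocyte genes and the haemoglobin gene HBA1, reached 1 TPM. Of these, 6 had 0 counts, PTPRC, CD3E and HBA1 among them, and the highest was CD14 with 7 counts. Of 10 endothelial markers, TEK, the angiopoietin receptor, stood at 30.6 TPM and ROBO4 at 2.49 TPM, while PECAM1, EMCN and ERG had 0 counts, CDH5 had 2 and VWF 4. Of 16 epithelial markers 6 were at 1 TPM or more, beside 59.6% of all protein-coding genes. The simple keratin KRT18 had 109.8 TPM and its partner KRT8 13.5 TPM, the keratins KRT19 and KRT7 had 7.41 and 1.49 TPM, AGER, a marker of alveolar type I cells, had 6.35 TPM and the mucin MUC1 1.88 TPM. On the other side CDH1, the epithelial cadherin, had 1 count, EPCAM had 5 counts, and KRT5, KRT14, SCGB1A1 and the surfactant genes SFTPA1, SFTPB and SFTPC had 0.

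The smooth muscle and pericyte list was the other one with abundant members. TAGLN, the actin-bundling protein transgelin, had 1267 TPM, ACTA2, smooth muscle α-actin, had 225 TPM, the surface antigens MCAM and CSPG4 had 136 and 124 TPM and CNN1, calponin, had 104 TPM. MYH11, the smooth muscle myosin heavy chain, had 2 counts, and the muscle filament gene DES had 1.42 TPM. In the mesothelial and neural list the highest value was 4.30 TPM for SNAP25, and WT1, UPK3B and LRRN4 had 0 counts. In bulk RNA fewer cells of a type and less RNA per cell cannot be told apart.

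The library was concentrated in few features. A total of 21549 features had at least 1 count and 39074 (64.5%) had none. Of 19332 protein-coding genes, 14135 had a count, 11529 (59.6%) reached 1 TPM and 8107 reached 10 TPM. The median protein-coding gene with a count had 380 counts and 14.3 TPM. The length behind each value could be recovered, so that 1 count on a gene of 1000 bases is 0.206 TPM. At 1 TPM a gene of 3000 bases holds about 14.6 counts.

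The 1425 protein-coding genes at 100 TPM or more held 68.1% of all TPM, and the 6682 genes between 10 and 100 TPM held 23.3%. The 2606 genes with a count but under 1 TPM held 0.0791%, at a median of 4 counts each. Over all features, 29 held 25% of the TPM, 303 held 50% and 4765 held 90%.

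**Figure D1:**
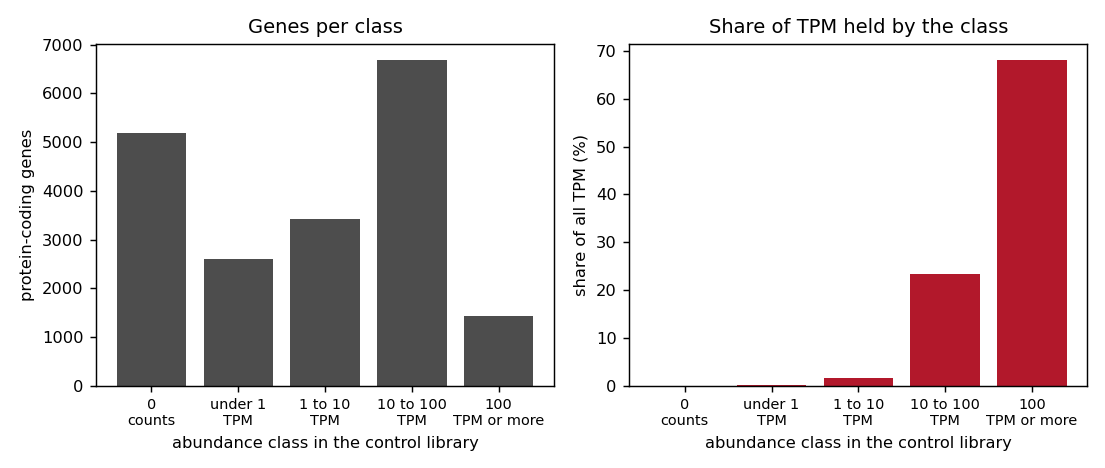
Number of protein-coding genes in each of 5 abundance classes of the control library (left, bars) and share of all TPM held by each class in percent (right, bars). The class of 100 TPM or more is the smallest, with 1425 genes, and holds 68.1% of the TPM.

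The most abundant messages came from the mitochondrial genome. MT-CO2, MT-CO1 and MT-CO3, the core subunits of cytochrome c oxidase, had 26281 (interval 26106 to 26456), 24192 (24081 to 24304) and 20674 (20529.6 to 20819) TPM. MT-ATP6, a subunit of ATP synthase, had 12049 TPM. The complex I subunit MT-ND4 had 11183 TPM, and MT-CYB of complex III had 7487 TPM. Mitochondrial features made up 11 of the 20 highest TPM values but 2 of the 10 highest counts.

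Together the 36 mitochondrial features held 13.9% of TPM and 3.75% of counts, as TPM divides counts by length. The 13 encoded proteins spanned a range from 938 TPM for MT-ND6, the one encoded on the light strand, to the level of MT-CO2. All 3 oxidase subunits lay above all 7 complex I subunits, of which MT-ND4 (11183 TPM), MT-ND4L (6552 TPM) and MT-ND1 (4611 TPM) were the highest. MT-ATP8 had 2188 TPM; it overlaps MT-ATP6, and the division of their reads is uncertain. The ribosomal RNAs MT-RNR2 and MT-RNR1 had 8363 and 1371 TPM, and 16 of 21 mitochondrial tRNA features held 496 counts in all. The table lists these genes without the MT prefix, as COX2 or ND4, and they were identified by their Ensembl IDs.

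Among nuclear genes TMSB10, which encodes the actin-sequestering thymosin β10, was highest at 21134 TPM (interval 20944 to 21325). FTL, the ferritin light chain, followed with 13062 TPM, then ACTB, β-actin, with 11433 TPM, GAPDH, the glycolytic glyceraldehyde-3-phosphate dehydrogenase, with 11082 TPM, and ACTG1, γ-actin, with 9881 TPM. EEF1A1, the elongation factor that brings aminoacyl-tRNA to the ribosome, had 9661 TPM and the most counts of any feature, 256700. After EEF1A1 by counts came ACTB with 189402, MT-CO1 with 181071, COL1A1 with 163374, ACTG1 with 140038 and GAPDH with 128880. IGFBP5 (117872), VIM (98118), MT-CO2 (87252) and COL6A3 (83771) completed the 10 largest. COL6A3, with a length of 19633 bases, ranked 10 by counts and 133 by TPM. TMSB10, with 461 bases, ranked 24 by counts and 3 by TPM. Most neighbours among the 20 highest TPM values were apart by counting error. MT-ND4 (11103 to 11264) and GAPDH (11022 to 11143) overlapped, as did RPS12 (4552 to 4704) and MT-ND1 (4549 to 4673), and TUBB (4451 to 4518) and MT-ND3 (4344 to 4546).

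The 10 highest features held 16.1% of TPM. By counts the 10 largest features held 8.09% of counts.

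**Figure D2:**
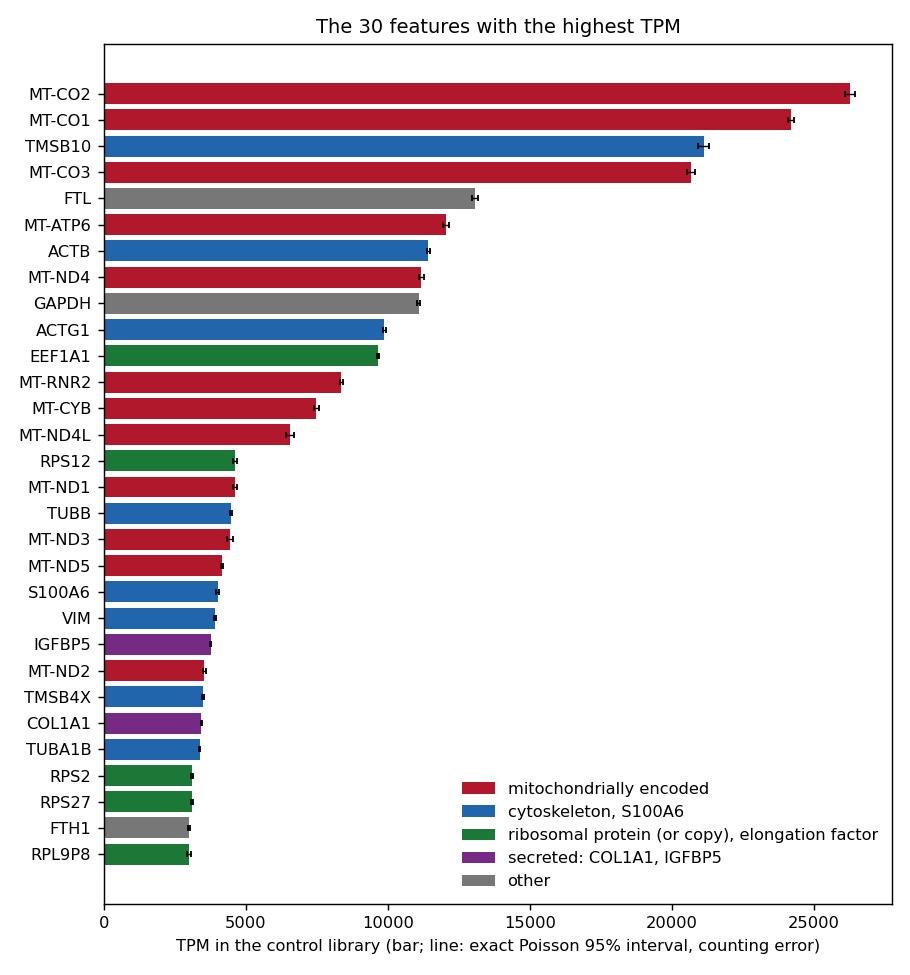
The 30 features with the highest TPM in the control library, highest at the top; bars are TPM on a linear axis that starts at 0, lines are exact Poisson 95% intervals, and colours mark mitochondrially encoded genes, cytoskeletal genes with S100A6, ribosomal proteins (or a pseudogene copy) with EEF1A1, secreted proteins, and others. MT-CO2, MT-CO1, TMSB10 and MT-CO3 lie at 20674 TPM or more, and FTL, the next, at 13062 TPM.

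Genes of the actin cytoskeleton held almost as large a share of TPM as ribosomal protein genes did. The 40 actins, actin-binding and contractile genes held 6.59% of TPM, and 32 of them were at 100 TPM or more. Behind TMSB10, ACTB and ACTG1 came TMSB4X, thymosin β4, at 3482 TPM and PFN1, the monomer-binding protein profilin, at 1781 TPM. Cytoplasmic β-actin exceeded smooth muscle α-actin 50.7-fold. The skeletal actin gene ACTA1 had 0 counts, and the cardiac actin gene ACTC1 had 2 counts. SMTN, a smooth muscle actin binder, was the lowest member above 1 TPM, at 44.3 TPM.

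Of 20 tubulin genes, 14 reached 1 TPM, beside 59.6% of all protein-coding genes. TUBB led at 4484, then TUBA1B at 3372, TUBB4B at 1642, TUBA1A at 1329 and TUBA1C at 877 TPM. The other 6 tubulin genes, TUBB1, TUBA8 and TUBB4A among them, had 0 counts, and the neuronal TUBB3 was the lowest above the limit at 2.74 TPM. VIM made up 74.9% of the TPM of the intermediate filament and lamin list, ahead of LMNA, which encodes lamins A and C, at 510.4 TPM and NES, nestin, at 293 TPM. Members of the tubulin and actin families share long stretches of sequence, so the division of reads among close copies is uncertain.

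The list of ferritin, redox and metallothionein genes and that of annexins, S100 proteins and galectins also had abundant members. The iron-storage chains FTL and FTH1 differed 4.34-fold, with 3009 TPM for FTH1. The metallothionein MT2A had 1565 TPM, GPX1, a glutathione peroxidase, 1178 TPM, and PRDX1, a peroxiredoxin, 901 TPM, while the metallothioneins MT1B, MT1G, MT1H and MT1M had 0 counts. Among annexins, S100 proteins and galectins, S100A6, LGALS1 (2726 TPM), S100A11 (1737 TPM), ANXA5 (1056 TPM) and S100A10 (737 TPM) were highest. The myeloid and epithelial members S100A7, S100A8, S100A9 and S100A12 had 0 counts.

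In glycolysis, GAPDH was followed by TPI1 at 1778, ENO1 at 1404, PKM at 1124 and LDHA at 948 TPM. LDHB, which encodes the other main lactate dehydrogenase chain, had 38.0 TPM. The leukocyte hexokinase HK3 and the testis forms GAPDHS and PGK2 had 0 counts.

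Ribosomal protein genes held the largest share of TPM of any nuclear list. By counts the order turned over, with 4.83% for ribosomal protein genes and 5.36% for the actin list. The 87 ribosomal protein genes held 6.67% of TPM, with 75 of them at 100 TPM or more and 20 at 1000 or more. RPS12 led at 4627 TPM, then RPS2 at 3103 (interval 3071 to 3135) and RPS27 at 3101 (3052 to 3150.2), which did not differ beyond counting error, RPL13A at 2812 and RPL41 at 2569 TPM. Reads of these genes can also be assigned to their many processed pseudogenes, so single values are uncertain. Among factors, EEF2, the translocase, had 2496 TPM, EIF5A 1225 TPM, TPT1 943 TPM and EIF4G2 809.9 TPM.

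The secretory route was expressed throughout. All 25 genes of endoplasmic reticulum folding were at 10 TPM or more, beside 41.9% of all protein-coding genes. The median of the list was 172 TPM. CALR, the lectin chaperone calreticulin, led at 2976 TPM, followed by HSPA5 (BiP) at 1498, HSP90B1 at 1236, P4HB at 834 and the translocon subunit SEC61A1 at 833 TPM. All 20 cytosolic chaperone genes also passed 10 TPM, led by HSPA8 (2407 TPM), HSP90AA1 (1961 TPM), HSP90AB1 (1832 TPM), PPIA (912 TPM) and HSPB1 (854 TPM).

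Each of the 12 lists of extracellular matrix genes had expressed members. Together they hold 251 genes, of which 175 (69.7%) were at 1 TPM or more, 72 at 100 or more and 40 at 0 counts; over all protein-coding genes 59.6% reached 1 TPM. The matrix genes took 4.05% of TPM and 7.02% of counts. The lists were drawn up with earlier results of these data known.

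Type I collagen, the main fibre of lung interstitium, led the collagens. COL1A1 (ENSG00000108821; GRCh38 chr17:50184101-50201631) had 163374 counts and 3428 TPM (interval 3411 to 3445). COL1A2 (ENSG00000164692; chr7:94394895-94431227), the partner chain, had 78991 counts and 1459 TPM (1449 to 1469). The ratio of the chains' TPM was 2.35, and the type I trimer holds the chains at 2:1. The RNA ratio depends on the lengths used, 9819 bases for COL1A1 and 11156 for COL1A2. It is not a measure of protein. Type III collagen, COL3A1, had 580.1 TPM, and the fibril-regulating COL5A2 and COL5A1 had 449.6 and 132 TPM. The cartilage collagen COL2A1 had 0 counts; COL24A1 at 1.36 and COL11A2 at 0.734 TPM were the fibrillar chains next above and below 1 TPM.

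Type VI collagen forms beaded filaments around cells, and its COL6A2 was the highest chain after those of type I. The chains COL6A2, COL6A3 and COL6A1 had 1025, 879 and 579.6 TPM, while the alternative chains COL6A5 and COL6A6 had 0 counts. COL12A1, a fibril-associated collagen, had 427 TPM and COL7A1, the anchoring fibril collagen, 80.7 TPM. The basement membrane pair COL4A2 and COL4A1, which are transcribed head to head, had 200.3 (197 to 203) and 199.7 (196 to 203) TPM and did not differ beyond counting error. COL4A3, the chain of lung and kidney basement membranes, had 0 counts. COL8A1 had 123, COL18A1 61.9 and COL15A1 44.7 TPM. In all, 10 of the 22 remaining collagens had 0 counts, among them COL9A1, COL19A1 and COL20A1.

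Genes that process collagen accompanied the chains. Of 33 such genes 28 reached 1 TPM. P4HB, a subunit of prolyl 4-hydroxylase and protein disulfide isomerase, had 834 TPM, PPIB, a prolyl isomerase of the endoplasmic reticulum, 821 TPM, SERPINH1, the collagen chaperone HSP47, 635 TPM, FKBP10 595 TPM and the lysyl oxidase LOXL2 386 TPM. TLL1, a procollagen C-proteinase, was the only member of the list with 0 counts, and its relative TLL2 had 1 count.

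The matricellular list held the highest matrix value after COL1A1. CCN2, the connective tissue growth factor, had 2718 TPM (interval 2687 to 2748; chr6:131948176-131951372), SPARC, a collagen-binding glycoprotein, 1821 TPM and CCN1 1444 TPM. FN1, fibronectin (chr2:215360865-215436068), had 865 TPM from 72321 counts, and THBS1, thrombospondin 1, an activator of latent TGF-β, had 723 TPM. POSTN, periostin, had 29.0 TPM. SPP1, osteopontin, had 1 count, and MGP, NPNT, SPARCL1, SMOC2, TNR, TNN and CCN6 had 0.

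Several messages of the microfibril scaffold of elastic fibres, though not all, were higher than that of elastin. EMILIN1 had 306 TPM, LTBP1, which stores latent TGF-β, 302 TPM, EFEMP2 (fibulin 4) 185 TPM, FBN1 (fibrillin 1) 121 TPM and FBLN5 106 TPM, against 12.7 TPM for ELN, elastin itself. FBN3 had 0 counts, and MFAP5 had 3.

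The small leucine-rich proteoglycans fell into an expressed and an unexpressed set. DCN (decorin), LUM (lumican) and BGN (biglycan) had 382, 341 and 231.5 TPM, followed by TSKU at 29.7 and PODN at 10.6 TPM. OGN, EPYC, KERA, OMD, CHAD and NYX had 0 counts, and ASPN had 1. Among larger and cell-surface proteoglycans SDC4 (syndecan 4) led at 439 TPM, then GPC1 (glypican 1) at 371, SRGN (serglycin) at 221, SDC3 at 210.3 and SDC1 at 132 TPM, whereas GPC3, NCAN, PRG4, SPOCK2 and SPOCK3 had 0 counts.

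Laminins are trimers of an α, a β and a γ chain, and the chains were uneven in level. LAMC1, LAMB2 and LAMB1 had 263, 224 and 151 TPM, but the α chains LAMA4 and LAMA5 had 29.5 and 13.3 TPM. NID2 had 178 TPM and NTN4 139 TPM. The epithelial chain LAMA3 was under 1 TPM, at 0.253, and LAMC3 had 0 counts. For hyaluronan, the receptor CD44 had 883 TPM, the depolymerising protein CEMIP 389.6 TPM and the synthase HAS2 101 TPM; HAS3 had 1.35 TPM, and HAS1 and the scavenger receptors STAB1 and STAB2 had 0 counts.

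Both proteases and their inhibitors were among the abundant matrix genes. PLAU, the plasminogen activator urokinase, had 1080.1 TPM. The metalloproteinase inhibitors TIMP1, TIMP2 and TIMP3 had 1304, 658 and 332 TPM, and TIMP4 had 5.18. The membrane collagenase MMP14 had 492 TPM, the cathepsin CTSB 489 TPM, the interstitial collagenase MMP1 451 TPM, ADAM9 339 TPM and the gelatinase MMP2 229.7 TPM. The metalloproteinases MMP7, MMP9, MMP12 and MMP13 had 0 counts. All 15 listed inhibitors and 29 of 36 proteases reached 1 TPM.

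**Figure D3:**
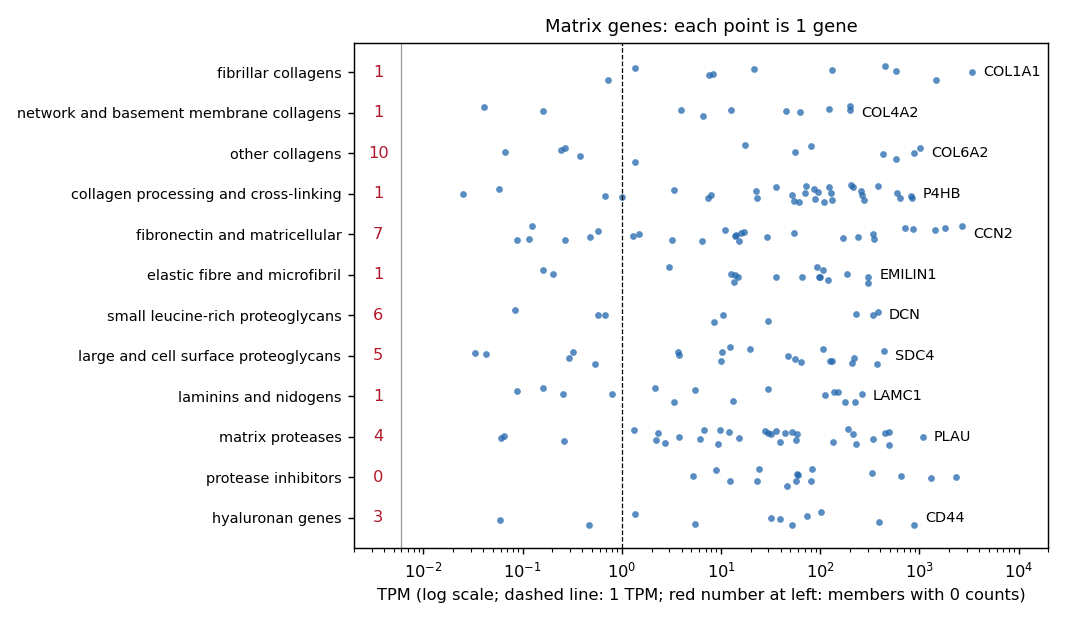
TPM of each gene in the 12 matrix lists of the control library on a log axis; each point is 1 gene with a count, the dashed line is 1 TPM, the red number at the left is how many members had 0 counts, and the highest member is named except among protease inhibitors. COL1A1, CCN2, COL6A2 and PLAU lead lists and lie above 1000 TPM, while 10 of the remaining collagens have no count.

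The median receptor gene stood at 1.27 TPM, against 15.3 TPM for the median matrix gene and 5.11 TPM for the median protein-coding gene. Of 317 receptor genes 160 (50.5%) reached 1 TPM, beside 59.6% of all protein-coding genes, 23 reached 100 and 77 had 0 counts. ITGB1, the common β1 integrin chain, was the only receptor above 1000 TPM, at 1109 TPM (interval 1097 to 1122). Its partners ITGA5, of the fibronectin receptor, and ITGA3 had 246 and 145 TPM, and ITGAV and ITGB5 had 78.4 and 89.9 TPM. The collagen-binding ITGA11 and ITGA1 had 16.7 and 37.2 TPM. The leukocyte chains ITGAL, ITGAM, ITGAD and ITGB2 and the epithelial ITGB6 had 0 counts.

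AXL was the leading receptor tyrosine kinase, at 621 TPM (611 to 631), and held 44.7% of the TPM of its list. PDGFRB, the collagen receptor DDR2, PTK7 and PDGFRA followed at 116, 94.2, 90.2 and 90.01 TPM. FGFR1 had 79.7 and EGFR 73.7 TPM. The other FGF receptors were lower, with 7.24 TPM for FGFR4, 1.70 TPM for FGFR3 and 1 count for FGFR2. FLT3, ERBB4, MERTK and NTRK2 had 0 counts. Of the ephrin receptors EPHA2 (83.5 TPM), EPHB4 (40.1 TPM), EPHB2 (30.6 TPM) and EPHA4 (11.7 TPM) were the highest.

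For TGF-β, the agent that the series gives to the other groups, both signalling receptors were present in the control cells. TGFBR2, the ligand-binding receptor, had 160.4 TPM and TGFBR1, its signalling partner, 45.6 TPM. The co-receptor ENG, endoglin, was the highest of the family at 199.7 TPM. The BMP receptors ACVR1, BMPR2 and BMPR1A had 42.4, 37.1 and 17.9 TPM, and ACVR2B lay just under the limit at 0.945 TPM. AMHR2 had 0 counts.

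The cytokine receptors were led by a shared signalling chain. IL6ST, the gp130 chain of the IL-6 family, had 257 TPM, IL7R 169, OSMR, the oncostatin M receptor, 108, IL13RA1 96.4 and IFNGR2 59.4 TPM. Of the 40 listed chains 11 had 0 counts, IL2RA, IL2RG, IL3RA and CSF3R among them. In the TNF receptor family TNFRSF12A, the TWEAK receptor Fn14, led at 725 TPM, followed by TNFRSF10D (222 TPM), TNFRSF11B (osteoprotegerin, 169.5 TPM), TNFRSF1A (167 TPM) and TNFRSF10B (146 TPM).

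Receptors for pathogen patterns and chemokines were nearly silent. Of 10 Toll-like receptors, TLR6 alone passed 1 TPM, at 1.98, and TLR4, TLR7, TLR8, TLR9 and TLR10 had 0 counts. None of 22 chemokine receptors reached 1 TPM; 15 had 0 counts, CXCR4 and CCR2 among them, and the highest was CCR10 with 10 counts.

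Receptors for lipid and peptide mediators were led by LPAR1, the lysophosphatidic acid receptor, at 502 TPM and F2R, the thrombin receptor PAR1, at 339.7 TPM. The orphan receptor GPR176 had 214, the oxytocin receptor OXTR 151 and the prostaglandin E2 receptor PTGER2 101 TPM. The angiotensin receptor AGTR1 was just above the limit at 1.36 TPM. Among Frizzled, Notch and Hedgehog receptors FZD7, FZD2 and FZD6 had 181, 153 and 122 TPM, then NOTCH2 56.8 and NOTCH3 40.5 TPM; FZD10 and LGR5 had 0 counts. Nuclear receptors were moderate. NR2F2 (COUP-TFII), PPARD, RXRB, NR2F6 and NR2F1 ranged from 87.9 to 45.1 TPM, while 13 of 48, among them ESR1, PGR and RARB, had 0 counts.

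Secreted signals were led by binding proteins and antagonists. Of 152 ligand and modulator genes 80 (52.6%) reached 1 TPM, beside 59.6% of all protein-coding genes, and 42 had 0 counts. IGFBP5 and IGFBP4, which bind insulin-like growth factors, had 3756 and 2153 TPM, and IGFBP7, IGFBP3 and IGFBP6 had 517, 358 and 225 TPM. Of the growth factors they bind, IGF1 had 0 counts and IGF2 had 19 (0.625 TPM).

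Antagonists also led the TGF-β family and the Wnt list. FST, follistatin, which binds activin, had 1082 TPM, FSTL1 866 TPM, GREM1, the BMP antagonist gremlin, 639 TPM and FSTL3 169 TPM. The ligands themselves were lower, with 105 TPM for GDF5, 68.3 TPM for INHBA, 57.3 TPM for TGFB1, 52.4 TPM for GDF15 and 22.6 TPM for BMP4. The ratio of TGFB1 to TGFB2 was 4.35, and TGFB3 was under 1 TPM at 0.587. SFRP1, a secreted Wnt binder, had 1200.4 TPM, DKK3 326 and DKK1 164 TPM, ahead of the ligands WNT5A at 155 and WNT5B at 115 TPM. Of the 33 genes in that list 17 had 0 counts.

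Growth factor messages included GAS6 at 588 TPM, the heparin-binding factors MDK and PTN at 352 and 194 TPM, FGF5 at 269 TPM and BDNF at 112 TPM. HGF, the hepatocyte growth factor made by mesenchyme, had 89.5 TPM. FGF10, FGF16, CSF3 and ANGPT2 had 0 counts. Among cytokines IL11 (114 TPM), LIF (104 TPM) and the monocyte attractant CCL2 (53.3 TPM) were highest. IL6 and CXCL8 had 4.78 and 4.60 TPM. TNF, IL10, IL33, IFNB1 and IFNG had 0 counts.

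Ligands and their receptors were set side by side for 24 known pairs, picked after the values were seen. In 16 both partners were at 1 TPM or more. GAS6, the ligand of AXL, was at 588 TPM (579 to 596) and AXL at 621 TPM. Others were PDGFC with PDGFRA (56.7 and 90.01 TPM), KITLG with KIT (64.8 and 17.2 TPM), ANGPT1 with TEK (37.6 and 30.6 TPM) and HGF with MET (89.5 and 25.9 TPM). In the other 8 pairs the ligand was at 1 TPM or more and its receptor below it. BDNF had 112 TPM and NTRK2 0 counts, FGF7 48.2 TPM and FGFR2 1 count, CSF1 57.7 TPM and CSF1R 4 counts, VEGFA 29.3 TPM and KDR 3 counts, and CXCL12 15.4 TPM and CXCR4 0 counts.

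**Figure D4:**
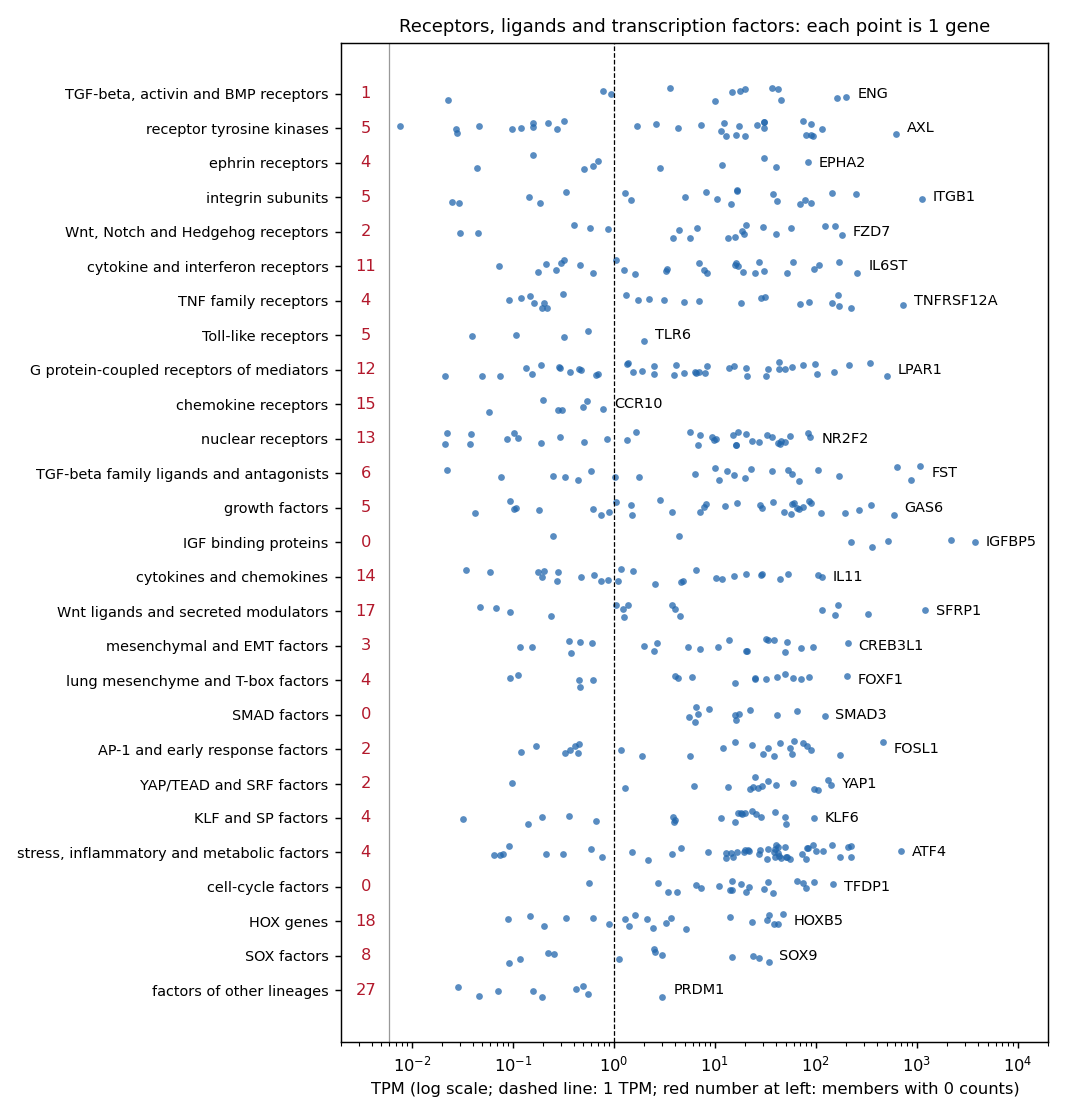
TPM of each gene in the receptor, ligand and transcription factor lists of the control library on a log axis; each point is 1 gene with a count, the dashed line is 1 TPM, the red number at the left is how many members had 0 counts, and the highest member is named. All points of the chemokine receptor list lie left of the line, and of the factors of other lineages PRDM1 alone lies right of it.

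The median transcription factor gene stood at 4.22 TPM. Of 301 factors 178 (59.1%) reached 1 TPM, close to the 59.6% of all protein-coding genes. At 100 TPM or more there were 17 factors, and none reached 1000. ATF4, the effector of the integrated stress response, was the highest at 699 TPM (interval 684 to 714). In the same list of stress, inflammatory and metabolic factors NFE2L1, EPAS1, HIF1A and XBP1 had 224, 221, 206 and 172 TPM. IRF4, IRF8 and TP63 had 0 counts.

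Factors known from lung mesenchyme were among those expressed. FOXF1 (ENSG00000103241; chr16:86510527-86515422), a forkhead factor of lung and gut mesenchyme, had 201 TPM (194 to 208), and TBX2, FOXF2, TCF21 and TBX3 had 85.6, 70.5, 59.6 and 49.4 TPM. FENDRR, the long noncoding RNA that lies beside FOXF1, had 129 TPM, and FOXL1, a forkhead gene next to both, 149.6 TPM. TBX4 had 9 counts, and TBX1, TBX15, TBXT and BARX1 had 0. NKX2-1, the factor of lung epithelium, had 0 counts.

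General mesenchymal factors were led by CREB3L1, which drives collagen and secretory genes, at 206 TPM, then ZEB1 at 92.9, SNAI2 at 70.9, PRRX2 at 52.1 and TCF12 at 49.1 TPM; MEOX2, HAND1 and EBF2 had 0 counts. In the SMAD list, which also holds co-repressors, all 12 genes reached 1 TPM, beside 59.6% of all protein-coding genes. SMAD3 had 122, SKI 64.3, SMAD5 41.0, TGIF2 22.5 and SMAD4 17.3 TPM, and the inhibitory SMAD7 was lowest at 5.57 TPM.

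Mechanical and serum-response factors were well represented. The coactivator YAP1 had 142 TPM and its DNA-binding partners TEAD1, TEAD3 and TEAD2 131, 105 and 59.6 TPM, with SRF at 95.7 TPM. CCN2 and CCN1, known targets of these factors, are among the matrix genes given above. In the AP-1 list FOSL1 had 456 TPM, JUN 172, JUND 89.7, FOSL2 82.3 and JUNB 74.5 TPM, whereas FOS was near the limit at 1.16 TPM; EGR4 and MYCN had 0 counts. KLF6 led the KLF and SP factors at 94.7 TPM.

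The HOX genes, which record position along the body axis, followed their clusters. The 10 genes of the HOXB cluster on chromosome 17 summed to 219 TPM, the HOXA cluster on chromosome 7 to 30.8, the HOXC cluster on chromosome 12 to 5.33, and all 9 genes of the HOXD cluster on chromosome 2 had 0 counts. HOXB5 had 46.9 TPM (42.8 to 51.4), HOXB2 42.3 (38.6 to 46.3), HOXB6 38.1 (34.7 to 41.6), HOXB3 34.5 (32.6 to 36.4) and HOXB7 32.9 (28.9 to 37.3), so that neighbours in this order did not differ beyond counting error. HOXB4 was lower at 23.3 TPM (20.3 to 26.5).

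Both ends of the HOXB cluster were low or at 0. HOXB8 had 1.29 TPM, HOXB9 and HOXB13, at the posterior end, had 0 counts, and so did HOXB1 at the anterior end. In the HOXA cluster HOXA5 was highest at 14.1 TPM and HOXA7 next at 5.13, while HOXA9, HOXA10 and HOXA11 had 3, 6 and 1 counts and HOXA13 none. HOXC8 was the only HOXC gene above 1 TPM, at 3.67. Antisense RNAs lie between HOX genes, and the strand setting of the counting is not given in the sources used here, so reads of both strands may be mixed.

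**Figure D5:**
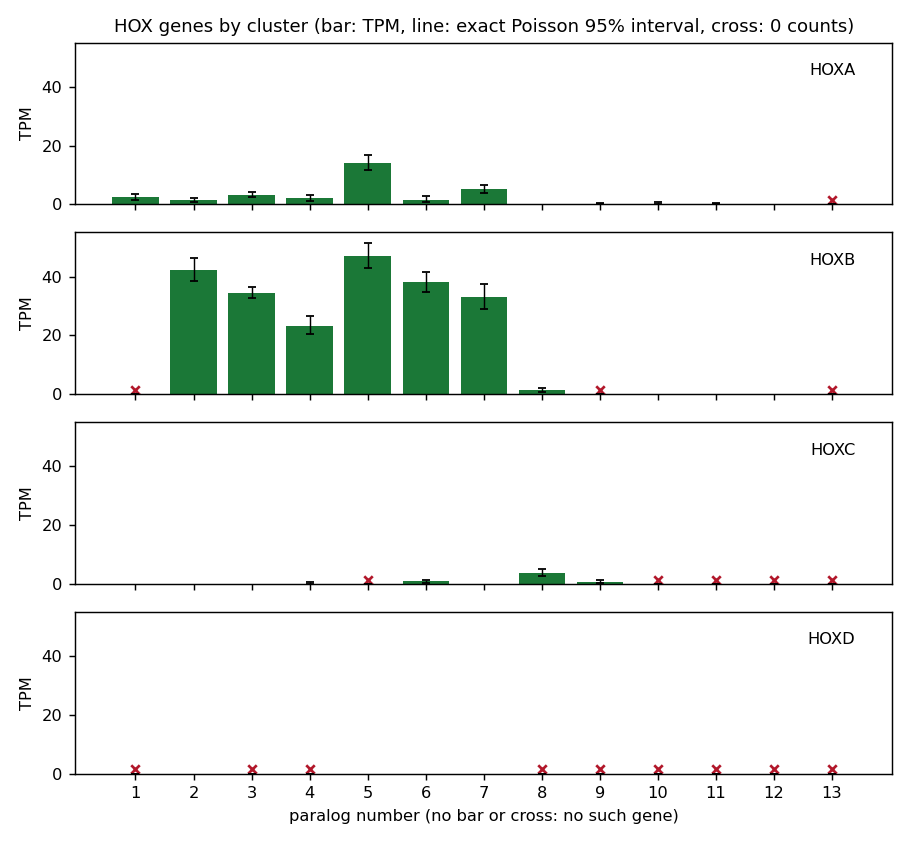
TPM of the HOX genes in the control library by cluster (panels HOXA to HOXD) and paralog number (horizontal axis); bars are TPM, lines exact Poisson 95% intervals, and crosses genes with 0 counts. HOXB2 to HOXB7 stand between 23.3 and 46.9 TPM, and the HOXD panel holds only crosses.

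Factors of other lineages were absent or at a few counts. Of 36 such genes 27 had 0 counts, including FOXA2, GRHL2, EHF and CDX2, and PRDM1 alone reached 1 TPM, at 3.02. SOX9, SOX12, SOX4 and SOX11 had 34.0, 27.0, 23.8 and 14.7 TPM, whereas SOX1, SOX2, SOX3 and SOX10 had 0 counts.

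The listed S-phase and G2/M genes of the dividing cell were expressed without exception. All 18 S-phase genes and all 16 G2/M genes passed 10 TPM, beside 41.9% of all protein-coding genes. The medians were 68.2 TPM for S phase and 144 TPM for G2/M. TK1, PCNA and TYMS, which serve DNA synthesis, had 366, 359 and 212 TPM. CDC20, CCNB1 and TOP2A, of mitosis, had 307, 274 and 221 TPM. Of 21 cell-cycle factors 20 reached 1 TPM, beside 59.6% of all protein-coding genes, and MYB did not. TFDP1, the partner of E2F factors, had 148 TPM, and FOXM1 94.7 TPM. The inhibitor CDKN1A (p21) stood at 986 TPM, and CDKN2A, which encodes p16 and p14ARF, at 11.4 TPM.

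Histone messages differed by kind. The 19 matched replication-dependent histone genes, whose messages end in a stem loop in place of a poly(A) tail, took 0.0150% of TPM, and the 10 replacement histone genes, which are polyadenylated, 0.225%. H2AZ1 was the highest at 969 TPM. The library was made with a kit that selects poly(A) RNA.

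Antigen presentation genes were mostly of class I. B2M, HLA-C, HLA-B and HLA-E had 774, 487, 456 and 335 TPM. Of class II, HLA-DRA, HLA-DRB1 and HLA-DQA1 had 0 counts, HLA-DPA1 had 2.54 TPM, and CIITA, the class II transactivator, had 2 counts.

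A total of 5197 protein-coding genes (26.9%) were not detected in this library. By counting error alone, such a gene may still stand at 3 counts, or 0.168 CPM (counts scaled to a total of 1000000). On a gene of 2000 bases that is 0.309 TPM. This bound would not hold where reads went uncounted for another reason, such as overlapping annotation, which was not tested. EEF1G, for example, had 0 counts beside 5577 for its partner EEF1B2, so a value of 0 need not mean a silent gene. Families that mark specialised cells were among the genes at 0 counts. All 44 defensin genes and all 13 interferon α genes had 0 counts, as did 373 of 388 olfactory receptors, 17 of 27 taste receptors, 42 of 55 keratins and 88 of 94 keratin-associated proteins.

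Some members of these families had counts, 15 olfactory, 10 taste and 6 keratin-associated genes. The hair keratin-associated genes KRTAP1-5 and KRTAP2-3 had 33.8 and 30.6 TPM from 194 and 130 counts, OR2W3 had 3.71 TPM from 17 counts, and the bitter receptor TAS2R14 2.63 TPM. Potassium channel genes were sparse, with 15 of 96 at 1 TPM, led by KCNK2 at 19.02 TPM. Widely used families were nearly complete: 38 of 40 proteasome genes, led by PSMD2 at 508 TPM, 35 of 39 nuclear NDUF genes of complex I, led by NDUFS5 at 905 TPM, and 427 of 511 zinc finger genes, led by ZNF146 at 108 TPM. Other families lay between these: 203 of 373 solute carriers reached 1 TPM, led by SLC25A6, a mitochondrial ADP/ATP carrier, at 1103 TPM, and 24 of 66 protocadherins, led by PCDH18 at 143 TPM. Of 52 forkhead genes 19 reached it. The share at 1 TPM was 54.4% of solute carriers, 36.4% of protocadherins and 36.5% of forkhead genes, beside 59.6% of all protein-coding genes.

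Promoter sequence was read from RefSeq for 15451 of the 19332 protein-coding genes (GRCh38.p14, 250 bases before the transcription start). The median share of CpG dinucleotides was 8.57% in genes at 100 TPM or more, 8.43% at 10 to 100, 7.63% at 1 to 10, 5.22% under 1 TPM and 2.01% in genes with 0 counts. The middle 50% of genes at 100 TPM or more ran from 6.43 to 11.2%, and of genes with 0 counts from 0.803 to 5.22%, and these ranges did not overlap. The 6-letter GGGCGG, on either strand, was in 78.1% of promoters in the highest class, 32.6% at 0 counts and 62.9% of all.

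The letters TATAAA, read on the gene's strand between 40 and 20 bases before a start, were uncommon at both ends but in unequal shares. They were in 4.35% of genes at 100 TPM or more, 1.36% at 10 to 100, 2.54% at 1 to 10, 4.35% under 1 TPM, 9.18% at 0 counts and 4.18% of all. The class of 10 to 100 TPM thus had the lowest share. The matrix lists had 8.33% over 180 matched genes. The following promoters show both ends of the range. Each line gives the 60 bases before the start, 5′ to 3′ on the gene's strand, with TATAAA in capitals. The upper 4 genes are abundant in the library (2976 TPM for CALR, 2718 for CCN2, 2496 for EEF2 and 1025 for COL6A2). The lower 3 had 0 counts.
CALR (chr19:12938549-12938608, plus strand): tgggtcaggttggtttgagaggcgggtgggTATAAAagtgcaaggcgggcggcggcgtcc
CCN2 (chr6:131951373-131951432, minus strand): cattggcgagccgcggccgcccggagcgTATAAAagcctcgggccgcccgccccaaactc
EEF2 (chr19:3985464-3985523, minus strand): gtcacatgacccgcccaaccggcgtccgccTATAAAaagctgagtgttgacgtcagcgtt
COL6A2 (chr21:46098052-46098111, plus strand): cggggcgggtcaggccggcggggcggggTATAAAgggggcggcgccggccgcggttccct
IFNB1 (chr9:21077943-21078002, minus strand): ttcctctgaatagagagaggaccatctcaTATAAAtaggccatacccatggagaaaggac
MMP7 (chr11:102530748-102530807, minus strand): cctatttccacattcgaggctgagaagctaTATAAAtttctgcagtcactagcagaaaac
S100A7 (chr1:153460652-153460711, minus strand): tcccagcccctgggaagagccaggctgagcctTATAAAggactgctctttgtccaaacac

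In the full 250 bases CpG occurred 18 times for CALR, 13 for CCN2, 31 for EEF2 and 28 for COL6A2. It occurred 0 times for IFNB1, an interferon, 3 for MMP7, an epithelial metalloproteinase, and 1 for S100A7, a skin protein. The 7 promoters share the motif and its place, 28 to 32 bases before the start, and differ in the surrounding CpG. They were picked after their values were seen, and a match to TATAAA is a string of letters, not a measured binding site.

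Ribosomal protein messages are known for a terminal oligopyrimidine tract, a run of C and T that opens the transcript and places its translation under growth signals. A C at the annotated start followed by at least 4 pyrimidines was found in 68.6% of 70 matched ribosomal protein genes and in 6.32% of all genes. Within 5 bases of the start on either side the shares were 80.0% and 28.3%. The tract is shown for 4 abundant ribosomal protein genes and for both main elongation factors, as 12 bases before the annotated start and 14 from it on, with unbroken runs of at least 5 pyrimidines near the start in capitals.
RPS12 (chr6:132814557-132814582, plus strand): tgcggatgaggCCTCTTTCCCTgccg
RPS27 (chr1:153990750-153990775, plus strand): tccgCTTTCgCTCCTTTCCggcggtg
RPL13A (chr19:49487596-49487621, plus strand): caaaaCCTCCTCCTTTTCCaagcggc
RPL41 (chr12:56116621-56116646, plus strand): aacttcgCCTTTCTCTCggccttagc
EEF1A1 (chr6:73521019-73521044, minus strand): gccgtgaacgTTCTTTTTCgcaacgg
EEF2 (chr19:3985450-3985475, minus strand): gacgtcagcgTTCTCTTCCgccgtcg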

How the data were processed

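MRC5 mRNA was prepared from total RNA with TRIzol and a stranded TruSeq mRNA kit, per the labels' protocols. The deposited count columns hold whole reads per Ensembl gene and were taken unchanged. TPM was computed by the authors; each value equals about 206 times the count over a gene length, and the constant was the same for all 15 mitochondrial proteins and ribosomal RNAs, so the length behind each value is known. That length was 3413 bases for ACTB and 5474 for EEF1A1, more than their usual mRNA, and TPM is lowered where annotated exons exceed the main transcript. The submitters' processing notes name fastp 0.20.0, HISAT2 2.1.0, featureCounts 2.0.1, edgeR 3.36.0 and hg38, without roles. For the annotation release and the strand setting: not given in the sources used here.

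Of the features, 44020 had a symbol in the deposited table and 36185 matched a RefSeq gene type; positions and promoters are from RefSeq on GRCh38.p14. The lists, 61 in number, hold 1431 symbols, of which 1429 matched; H2AC18 and MIR143HG did not. The members and lists were chosen with earlier results of these data known. Named genes are the 20 highest TPM values, the 10 largest counts and, in each list, the 5 highest members, those at 0 counts (up to 5 where there are more), the members next to 1 TPM and the highest member of each family. Some genes that the rule names are not reported here. Members named beyond it were chosen after their values were seen. Exact intervals were computed with scipy 1.17.1, and tables with pandas 2.3.3 on Python 3.11.15; matplotlib 3.10.9 drew the figures. The scripts were tested on simulated data. Alternatives were another threshold, shares of counts, nuclear features only and other promoter windows. The labels mention no molecular identifiers, so reads may not be independent molecules. The other libraries were not used here.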

Additional observations from a re-analysis of the deposited data

How the results depend on the processing

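No paired analysis was possible because the control group has 1 library and no comparison was made, and for the same reason no library could be left out. Of 34 alternatives 18 left their result within 1.5 times a count or within an interval around a share, and 16 moved it. For shares of TPM the interval was of counting error. For the TATAAA share it was an exact binomial 95% interval over genes, and for the median CpG share a band from the spread over genes. Shares of counts and of nuclear TPM are other quantities than shares of all TPM, so the split is no measure of stability. The number of detected features was 14135 with protein-coding genes alone, against 21549. Protein-coding genes under 1 TPM numbered 7803, against 5197 with 0 counts. Counted in reads, the 10 most abundant features took 8.09%, against 16.1% of TPM, matrix genes 7.02%, against 4.05%, and ribosomal protein genes 4.83%, against 6.67%. Without COL1A1 the matrix share of TPM was 3.71%. Over nuclear features only, an alternative chosen after seeing the data, the 3 shares were 10.8%, 4.71% and 7.75%. For promoters, the whole entry of 300 bases gave a median CpG share of 8.86% at 100 TPM or more. Genes with a single start, also chosen after seeing the data, gave 9.24% at 100 TPM or more and 1.61% at 0 counts. TATAAA anywhere on either strand was in 9.81% of promoters at 100 TPM or more and 21.4% at 0 counts. TATAA, the 5-letter form added after seeing the data, was in 8.19% and 13.7%. In each alternative the genes at 0 counts had the lower CpG share and the higher TATAAA share of these classes. The receptor, ligand and transcription factor counts stayed within 1.5 times at 0.5 TPM, 2 TPM and 1 CPM. Depth limits the low end: features with 1 to 3 counts numbered 2730, 1379 and 829 for 1, 2 and 3 counts.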

Other observations

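Noncoding features took little of the library. Long noncoding RNAs of the RefSeq type held 0.463% of TPM, led by SNHG29 (292 TPM), NORAD (253 TPM), SNHG19 (198 TPM), GAS5 (194 TPM) and SNHG5 (153 TPM), of which SNHG29, SNHG19, GAS5 and SNHG5 are hosts of small nucleolar RNAs. MEG3, an imprinted gene, had 81.6 TPM from 9202 counts, and the nuclear RNAs MALAT1 and NEAT1 62.5 and 21.2 TPM, while H19, HOTAIR, HOTTIP and TRERNA1 had 0 counts. The share of protein-coding genes at 1 TPM or more was 45.6% on chromosome 21 and 46.2% on chromosome X, beside 53.7% on chromosome 11 and 64.5% on chromosome 14; these differences were not tested.

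Some genes that nearly all cells use had few counts beside partners of the same process; they were picked after their values were seen. EEF1G, a subunit of the elongation factor complex, had 0 counts beside 5577 for its partner EEF1B2. The helicase EIF4A1 had 102 counts and its paralog EIF4A2 6332. The glycolytic aldolase ALDOA had 440 counts beside 23298 for TPI1. RPS10, RPL36A and RPL17 had 3.49, 6.91 and 24.6 TPM from 39, 133 and 294 counts, where the median ribosomal protein gene with a count stood at 508 TPM. Of the 123 read-through features, whose symbol joins those of neighbouring genes, 92 had 0 counts. All 3 ribosomal protein genes named in such a feature, RPS10, RPL17 and RPL36A, were among the 5 under 50 TPM. The part that overlapping annotation plays in these counts was not tested.

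Processed copies of abundant genes stood high. The pseudogene features of ribosomal proteins held 2.25% of TPM from 0.322% of counts, and 43 of 1831 were at 100 TPM or more, led by RPL9P8 at 2997 TPM from 10430 counts. MTATP6P1, a nuclear copy of the mitochondrial MT-ATP6, had 1857 TPM. Short features also reach high TPM on few reads: ENSG00000264281, with a length of 78 bases, had 1091 TPM from 413 counts. All 451 features under 200 bases with a count were at 1 TPM or more, 325 of them on fewer than 4 counts, so the count of features at 1 TPM includes them. Whether reads of the parent genes were assigned to the copies was not tested.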
